A study of Homo sapiens with 6 samples.

Results

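The genes described here encode the enzymes of glycolysis, the carriers that bring glucose into the cell and lactate out of it, the kinases that set how much pyruvate enters mitochondria, and 3 enzymes of the glycogen branch. They are 33 named genes among the 58676 gene IDs of the deposited table, and each was found once by its GENCODE release 29 symbol. The cells are a human line that the labels call HCC, commonly short for hepatocellular carcinoma, without its name, and total RNA was sequenced in 6 libraries. The knockdown group holds 3 libraries titled sponge, the usual word for a transcript whose binding sites take up a microRNA, and their label is knockdown. The series title instead speaks of cells treated with miR-19a, so the labels leave unclear whether that microRNA was lowered or added, and knockdown is used below as the label only. The control group holds 3 libraries, titled with a number whose meaning is not given. Cells of both groups were kept in DMEM with fetal bovine serum, and no drug, dose or time is given. How the sponge was delivered, which promoter drives it, and whether replicates came from separate cultures or clones are not stated. A p-value here therefore reflects how far libraries of a group differ, which could be technical spread alone.

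Glycolysis splits glucose into pyruvate in the cytosol and yields ATP without oxygen. Lactate dehydrogenase turns the pyruvate into lactate, which leaves the cell, or the pyruvate dehydrogenase complex passes it to the citric acid cycle in mitochondria. Most steps have several isozymes from separate genes. The adult liver is known for its own set, SLC2A2 and PKLR among them, and liver cancers are known to turn to SLC2A1, HK2, ALDOA and PKM. The transcription factor HIF-1, active when oxygen is low, is known to raise many genes of this pathway by binding the letters ACGTG or GCGTG near their start sites.

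Values are RPKM, reads scaled by the gene's exon length and by the reads assigned in the library, so levels of different genes are compared per length. Reads recovered from these values summed to 1948940 to 19605312 per library, and control replicate 2 was the shallowest. Knockdown replicate 2 was left out, because its column is not in the gene order of the table. Its Spearman rank correlation across genes with the other libraries was 0.017 to 0.019, against 0.82 to 0.89 between any pair of the other 5, and it lists 25 of the 33 genes at 0 and GAPDH at 9.82 RPKM. The comparison therefore rests on knockdown replicates 1 and 3 and on 3 controls. Hepatocyte genes were present in all 5 libraries, with the 11 listed markers at summed levels of 2643 to 2939 RPKM in knockdown and 2585 to 3009 RPKM in control, ALB the highest. Of these markers, SERPINA1 (93.7 and 97.1 RPKM in knockdown, 56.2 to 73.5 RPKM in control) and TF (82.4 and 81.4 RPKM in knockdown, 55.3 to 64.4 RPKM in control) lay above all controls. APOB, at 83.5 and 45.7 RPKM in knockdown and 85.6 to 134 RPKM in control, lay below them. Summed fibroblast markers were at 68.0 to 72.0 RPKM in knockdown and 63.3 to 82.6 RPKM in control, most of it LUM. COL1A1 (2.33 and 2.16 RPKM in knockdown, 0.732 to 1.99 RPKM in control) and COL1A2 (14.7 and 12.02 RPKM in knockdown, 7.54 to 11.7 RPKM in control) lay above all controls. Blood and immune markers were at 36.8 to 43.0 RPKM in knockdown and 32.8 to 41.9 RPKM in control, most of it CD14, with CD3D above all controls (6.09 to 6.14 RPKM in knockdown, 3.07 to 4.46 RPKM in control), HBB at 0 and PTPRC at most at 0.0713 RPKM. Endothelial markers summed to 0.388 to 0.406 RPKM in knockdown and 0.523 to 0.760 RPKM in control, with PECAM1 below all controls (0.360 and 0.322 RPKM in knockdown, 0.513 to 0.661 RPKM in control) and KDR at 0. The part of these markers in the results was not tested.

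The mature strands of the microRNA named in the title and of its paralog are shown because they set which letters in a messenger RNA can pair with them. The capitals mark the seed, bases 2 to 8, and the sequences are RefSeq's on GRCh38.p14. hsa-miR-19a-3p comes from chromosome 13 and hsa-miR-19b-3p from chromosomes 13 and X, and both share the seed GUGCAAA. The table lists 0 in all 5 libraries for the short genes of these strands (MIR19A, MIR19B1, MIR19B2), and a sponge need not lower the microRNA it binds, so this table does not check the knockdown. MIR17HG, the host transcript of MIR19A, was at 1.26 and 1.13 RPKM in knockdown and 0.811, 0.441 and 1.24 RPKM in control, where the groups overlapped.
hsa-miR-19a-3p: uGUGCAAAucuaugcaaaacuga
hsa-miR-19b-3p: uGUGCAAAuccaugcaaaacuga

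The match to this seed, TTTGCAC, was looked for in each gene's longest 3' UTR in the annotation. It occurred in 5 of the 33 genes, 15.2% of them, and in 15.3% of 11765 tested coding genes, with a median 3' UTR length of 917 bases for the 33 and 1327 bases for the tested coding genes. The 5 sites are printed in transcript orientation from GENCODE release 29 with up to 11 bases on either side, and capitals mark the match and, in PFKM, the A that follows it.
SLC2A1: ttctagtctccTTTGCACtgagggccaca
PFKM: gccaaatactcTTTGCACAgttctttagtg
PFKFB3: agctgctggctTTTGCACttttttgatgg
PKM: ggcctctccagTTTGCACctgtccccacc
SLC16A3: cagggctggtcTTTGCACcctgtcctcca
PGK1 and PDK1 held TTGCACA, which pairs with seed bases 2 to 7 and has an A after them, and not TTTGCAC. A match is a description of the letters, not evidence of binding.

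In the comparison of knockdown with control, 23 of the 30 genes that could be tested had a log2 difference above 0 and 7 had one below 0. Their median log2 difference was 0.38, beside a median of 0.00 over all 15408 genes tested, of which 50% were above 0. In 18 of the 30 both knockdown libraries lay above all 3 controls, beside 14.3% of all genes tested, and in 0 of the 30 did both lie below, beside 13.6%. By limma, 12 of the 30 had an unadjusted p under 0.05 and were higher in knockdown, beside 3.8% of all genes, and 0 were lower, beside 2.54%. None of the 30 passed at an adjusted p under 0.05 over all genes tested, where 0% passed, and the limma adjusted p of the 30 genes lay between 0.71 and 0.96. With voom on the recovered reads 0 of the 30 passed as well, and 15 were higher at an unadjusted p under 0.05, beside 7.29% of all genes. The count of 12 was 6 without control replicate 1, 3 without knockdown replicate 1 and 5 without knockdown replicate 3, where the shares over all genes were 3.03%, 1.83% and 0.833%. It was 10, beside 4.67%, without control replicate 2, the shallowest library. In RNA of bulk cells, a change in the share of cells that use a gene and a change in its RNA per cell cannot be told apart.

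The 33 genes together took 2.23% and 2.41% of assigned reads in knockdown replicates 1 and 3, and 1.84%, 1.71% and 1.61% in control replicates 1, 2 and 3. Without GAPDH, the most abundant of them, the shares were 1.57% and 1.69% in knockdown, against 1.25%, 1.15% and 1.17% in control. Both knockdown libraries lay above all controls on either count. Mitochondrial transcripts, which share the same total, took 8.30% and 7.83% of reads in knockdown and 7.40%, 10.4% and 4.94% in control, so the groups overlapped there. Of reads that were not mitochondrial, the 33 genes took 2.43% and 2.61% in knockdown and 1.99%, 1.90% and 1.70% in control.

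**Figure D1:**
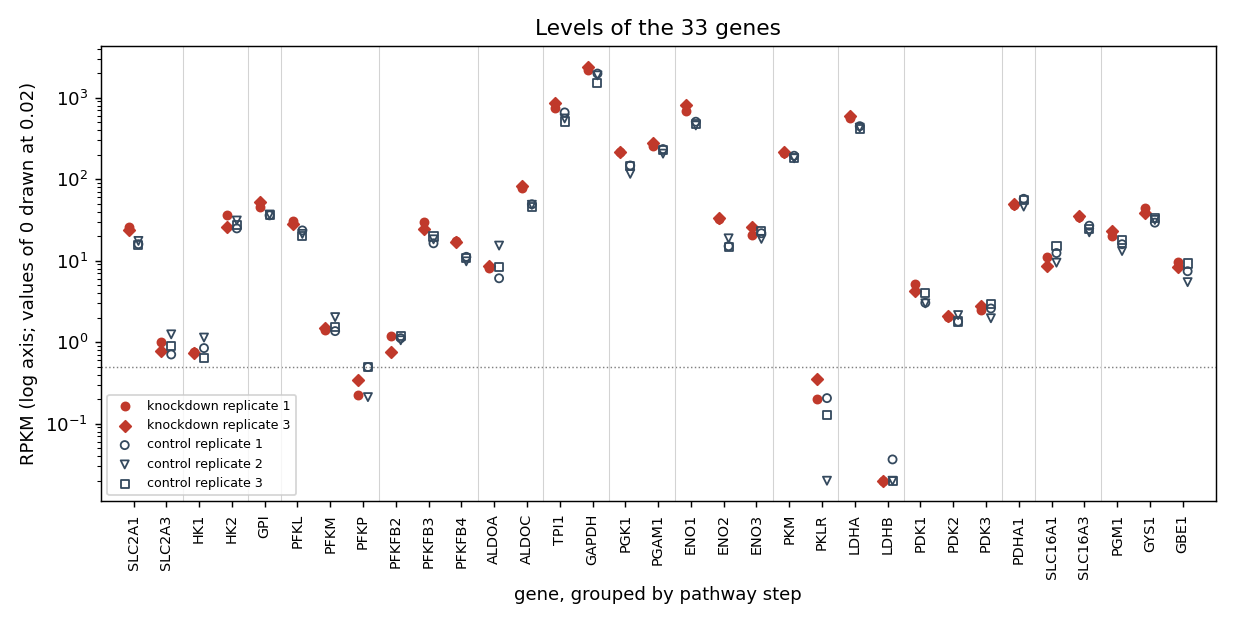
RPKM of each of the 33 genes in the 5 libraries on a log axis, grouped by pathway step, with knockdown libraries as filled red symbols left of the controls as open symbols; the dotted line marks 0.5 RPKM, the minimum for testing. GAPDH stands highest at 1499 to 2403 RPKM, and PFKP, PKLR and LDHB lie at the bottom and were not tested.

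Glucose enters through SLC2A1 and SLC2A3, carriers of high affinity, and SLC2A1 is the main one of solid tumours. SLC2A1 (ENSG00000117394, GRCh38 chromosome 1, 42925375 to 42959176) was measured at 26.2 and 24.1 RPKM in knockdown replicates 1 and 3, and at 15.95, 17.5 and 15.8 RPKM in the controls. The knockdown libraries lay clear of all controls, with a log2 difference of 0.60 (SE 0.14) and a limma adjusted p of 0.71. SLC2A3, the carrier best known from neurons, was near the minimum for testing, at 0.996 and 0.791 RPKM in knockdown and 0.707, 1.25 and 0.911 RPKM in control, and the groups overlapped. SLC2A1 made up 93.3% to 96.8% of the summed RPKM of the pair in every library. The liver carrier SLC2A2 reached 0.0630 RPKM at most.

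Hexokinase phosphorylates glucose and so keeps it in the cell. HK2, the inducible isozyme, was at 36.5 and 26.2 RPKM in knockdown and 24.9, 31.1 and 27.6 RPKM in control. Knockdown replicate 1 was the highest library and knockdown replicate 3 lay among the controls, and the log2 difference was 0.15 (SE 0.20). HK1, the isozyme of most tissues, was at 0.752 and 0.742 RPKM in knockdown and 0.848, 1.14 and 0.648 RPKM in control, within the spread of the controls. HK2 held 96.5% to 98.0% of the hexokinase pair.

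GPI, which turns glucose 6-phosphate into fructose 6-phosphate, was at 46.2 and 53.0 RPKM in knockdown and 36.0, 36.9 and 36.5 RPKM in control. The controls lay within 1 RPKM of each other and both knockdown libraries above them, at a log2 difference of 0.43 (SE 0.14).

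Phosphofructokinase commits sugar to glycolysis and works as a tetramer of 3 kinds of subunit. PFKL, the liver subunit, was at 30.4 and 28.5 RPKM in knockdown and 23.5, 21.3 and 20.3 RPKM in control, a log2 difference of 0.43 (SE 0.14) with no overlap. PFKM, the muscle subunit, was at 1.41 and 1.51 RPKM in knockdown and 1.37, 2.03 and 1.55 RPKM in control, and the groups overlapped. PFKP, the platelet subunit, was not tested, with 10 and 25 reads in knockdown and 22, 2 and 47 reads in control. PFKL held 90.5% to 94.9% of the 3 subunits' summed RPKM.

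The PFKFB enzymes make and remove fructose 2,6-bisphosphate, the strongest activator of phosphofructokinase, and PFKFB3 and PFKFB4 are known as hypoxia-induced isozymes. PFKFB4 (ENSG00000114268, chromosome 3 from 48517684 to 48562015) was at 17.4 and 17.1 RPKM in knockdown and 11.2, 9.83 and 10.8 RPKM in control. The knockdown libraries lay close together and above all controls, at a log2 difference of 0.68 (SE 0.14). PFKFB3 was at 30.2 and 24.5 RPKM in knockdown and 16.4, 18.3 and 19.8 RPKM in control, a log2 difference of 0.58 (SE 0.17) with no overlap. PFKFB2, the heart isozyme, was at 1.19 and 0.768 RPKM in knockdown and 1.12, 1.06 and 1.20 RPKM in control, where the groups overlapped.

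Aldolase cleaves fructose 1,6-bisphosphate into a pair of triose phosphates. ALDOC (ENSG00000109107, chromosome 17 from 28573115 to 28577264), the isozyme known from brain, was at 78.2 and 83.1 RPKM in knockdown and 49.2, 48.5 and 46.1 RPKM in control. This log2 difference of 0.74 (SE 0.14) was the next in size after that of ENO2 among the 30 tested genes, and its limma adjusted p was 0.71. ALDOA, the isozyme of muscle and most tumours, was at 8.10 and 8.67 RPKM in knockdown and 6.09, 15.3 and 8.45 RPKM in control, with control replicate 2 far above the other libraries. Its log2 difference of -0.14 (SE 0.38) was 0.21 without that library and -0.42 without control replicate 1. The value of ALDOA is uncertain, because 42.3% of its annotated exon bases also belong to AC093512.2 on the same strand, and reads there could have been counted for neither gene.

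TPI1, which interconverts the triose phosphates, was at 756 and 853 RPKM in knockdown and 659.7, 556 and 510.3 RPKM in control. GAPDH, which oxidizes the triose and makes NADH, was at 2201 and 2403 RPKM in knockdown and 1977, 1878 and 1499 RPKM in control. Both genes had knockdown libraries above all controls, at log2 differences of 0.49 (SE 0.22) and 0.38 (SE 0.27), and control replicate 3 was the lowest library for both. That of GAPDH was 0.15 after quantile normalization. Named pseudogenes of these genes, which can share reads with their parent, took 1.21% to 6.49% of the sum for TPI1 and 0.458% to 2.68% for GAPDH, with the highest share in control replicate 2.

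PGK1, the first enzyme of the pathway to make ATP, was at 213 and 215 RPKM in knockdown and 147, 116 and 144 RPKM in control. The knockdown libraries agreed within 3 RPKM and lay above all controls, at a log2 difference of 0.66 (SE 0.18). PGAM1, which moves the phosphate group of phosphoglycerate, was at 259 and 281 RPKM in knockdown and 234, 206 and 229 RPKM in control. Its log2 difference was smaller, 0.28 (SE 0.17), with no overlap, and was 0.11 after quantile normalization.

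Enolase makes phosphoenolpyruvate. ENO2 (ENSG00000111674, chromosome 12 from 6913745 to 6923698), known as the neuronal enolase, was at 32.9 and 33.1 RPKM in knockdown and 15.1, 18.8 and 14.7 RPKM in control. It averaged 32.98 ± 0.130 RPKM in knockdown (SD, n = 2) and 16.2 ± 2.26 RPKM in control (SD, n = 3). Its log2 difference of 1.01 (SE 0.17), a fold of 2.02, was the largest of the 30 tested genes and higher than that of 98.1% of all genes tested. ENO1, the general and more abundant enolase, was at 682 and 811 RPKM in knockdown and 507, 457 and 481 RPKM in control, a log2 difference of 0.63 (SE 0.20) with no overlap. ENO3, the muscle enolase, was at 20.7 and 25.6 RPKM in knockdown and 21.7, 18.5 and 23.0 RPKM in control, and the groups overlapped. ENO3 shares 2.59% of its exon bases with PFN1 on the other strand, an abundant gene, and strand use in counting is not stated. ENO1 held 92.4% to 93.3% of the summed RPKM of the 3 enolases.

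Pyruvate kinase makes pyruvate and ATP. PKM, whose gene gives both the M1 and the M2 form, was at 208 and 215 RPKM in knockdown and 194, 180.4 and 180.4 RPKM in control. Both knockdown libraries lay above the controls, at a log2 difference of 0.20 (SE 0.15), which was 0.13 after quantile normalization, and a gene-level table cannot separate the forms. PKLR, the liver and red cell isozyme, was below the minimum for testing, with 6 and 17 reads in knockdown and 6, 0 and 8 reads in control.

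Lactate dehydrogenase is a tetramer of A and B subunits. LDHA was at 571 and 591 RPKM in knockdown and 447, 429 and 409 RPKM in control. The groups did not overlap, and the log2 difference was 0.44 (SE 0.18). LDHB had 0 reads in both knockdown libraries and 1, 0 and 0 reads in control replicates 1, 2 and 3. A count of 0 allows up to 3 reads, which for LDHB is 0.108 and 0.0662 RPKM in knockdown replicates 1 and 3 and 0.516 and 0.0513 RPKM in control replicates 2 and 3, a limit that covers counting error only. LDHB shares 33.4% of its exon bases with AC010197.2 on the same strand, which was listed at 0 in all 5 libraries.

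Lactate leaves through SLC16A3, the exporter known from glycolytic and hypoxic cells, and SLC16A1, which carries lactate either way. SLC16A3 was at 34.8 and 35.7 RPKM in knockdown and 26.9, 22.3 and 24.8 RPKM in control, a log2 difference of 0.51 (SE 0.15) with no overlap. SLC16A1 was at 11.1 and 8.56 RPKM in knockdown and 12.4, 9.47 and 15.1 RPKM in control. The groups overlapped, and its log2 difference was -0.30 (SE 0.25). It was -0.12 when knockdown replicate 3 was left out, -0.48 when knockdown replicate 1 was, -0.47 when control replicate 2 was and -0.15 when control replicate 3 was. Of the pair, SLC16A3 was the more abundant in every library.

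The PDK kinases switch off pyruvate dehydrogenase, whose catalytic subunit is PDHA1, and PDK1 is the isozyme known to respond to hypoxia. PDK1 was at 5.21 and 4.24 RPKM in knockdown and 3.04, 3.00 and 3.98 RPKM in control. Both knockdown libraries lay above the controls, though knockdown replicate 3 only just above control replicate 3, and the log2 difference was 0.45 (SE 0.21), which was 0.72 with length and GC trends removed. PDK2 was at 2.06 and 2.10 RPKM in knockdown and 1.79, 2.15 and 1.80 RPKM in control, and PDK3 at 2.48 and 2.80 RPKM in knockdown and 2.60, 1.97 and 2.92 RPKM in control. Both overlapped, and 38.6% of the exon bases of PDK2 lie opposite SAMD14, listed at 0.0436 RPKM at most. PDHA1 was at 48.2 and 48.9 RPKM in knockdown and 57.5, 46.1 and 55.6 RPKM in control, with knockdown within the range of the controls.

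In the glycogen branch, PGM1 links glucose 1-phosphate to glycolysis, GYS1 extends the glycogen chain and GBE1 branches it. GYS1 was at 44.9 and 38.4 RPKM in knockdown and 29.3, 31.7 and 33.7 RPKM in control, a log2 difference of 0.39 (SE 0.15). PGM1 was at 20.1 and 23.1 RPKM in knockdown and 15.9, 13.2 and 17.7 RPKM in control, a log2 difference of 0.46 (SE 0.18). Neither overlapped. GBE1, at 9.76 and 8.49 RPKM in knockdown and 7.44, 5.46 and 9.25 RPKM in control, did. Its log2 difference of 0.31 (SE 0.25) was 0.13 when control replicate 2 was left out and 0.48 when control replicate 3 was.

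**Figure D2:**
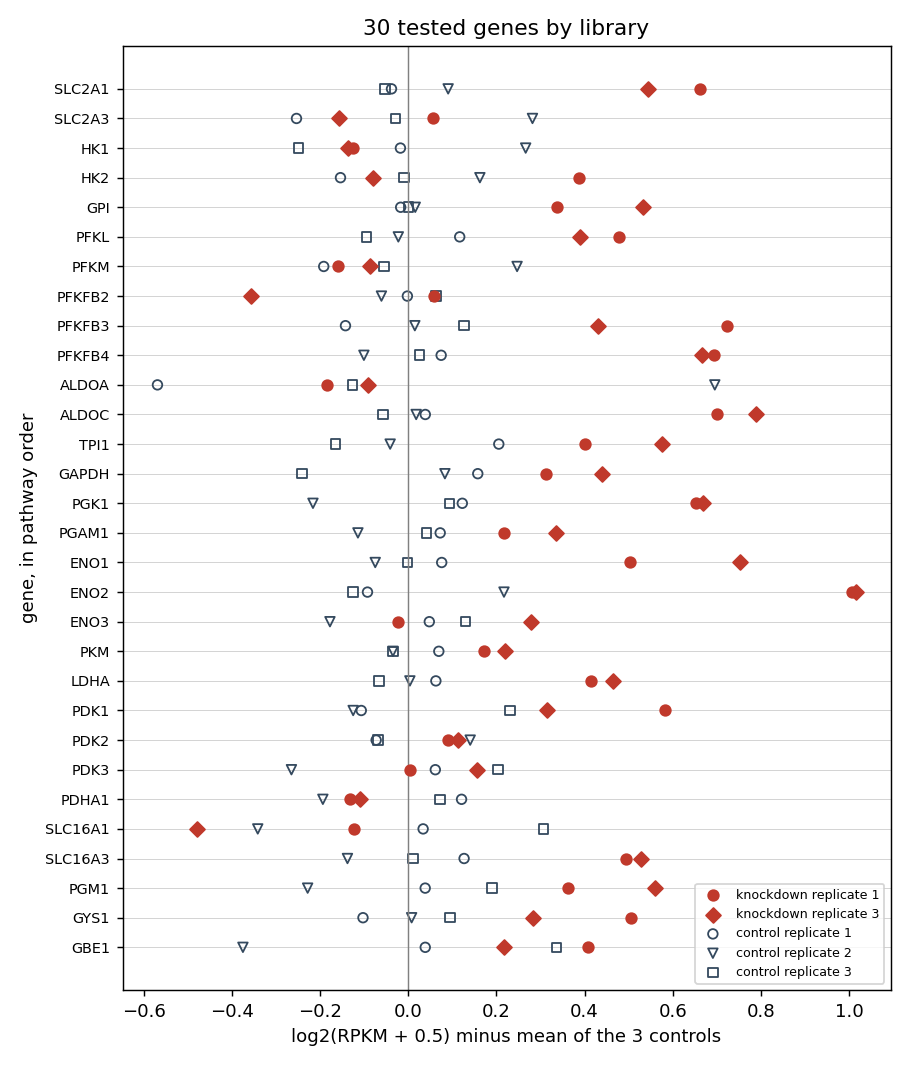
log2(RPKM + 0.5) of each library minus the mean of the 3 controls for the 30 tested genes in pathway order, with knockdown libraries as filled red symbols and controls as open symbols. Both red symbols lie right of every open symbol for 18 genes, and knockdown replicate 3 is the higher of the pair for 12 of these.

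Of the 18 genes without overlap, knockdown replicate 3 was the higher library for 12 and knockdown replicate 1 for 6. The 6 were SLC2A1, PFKL, PFKFB3, PFKFB4, PDK1 and GYS1. The 12 were GPI, ALDOC, TPI1, GAPDH, PGK1, PGAM1, ENO1, ENO2, PKM, LDHA, SLC16A3 and PGM1. Which of the 2 libraries of a group was higher was not tested, and for some genes, such as ENO2 and PFKFB4, they were nearly equal. All 18 kept a log2 difference above 0 in each of the 18 other settings tried on the 5 libraries. For genes without overlap most of these settings could not change the sign. Among these were another pseudocount or filter, no mean-variance trend, the replicate block and 1 library left out. Only rescaling, removal of length and GC trends, and voom could have changed it.

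Of the 5 genes with the seed match, SLC2A1, PFKFB3, SLC16A3 and PKM were among the 18, which are 60% of the 30 tested. PFKM, with the longest match, was not, at a log2 difference of -0.12 (SE 0.22). The share without overlap among all tested genes that hold the match was not computed. The 4 of largest log2 difference among the 30, ENO2, ALDOC, PFKFB4 and PGK1, held no TTTGCAC, though PGK1 held TTGCACA. Only 15.2% of the listed genes held it, and whether the match goes with the difference was not tested.

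**Figure D3:**
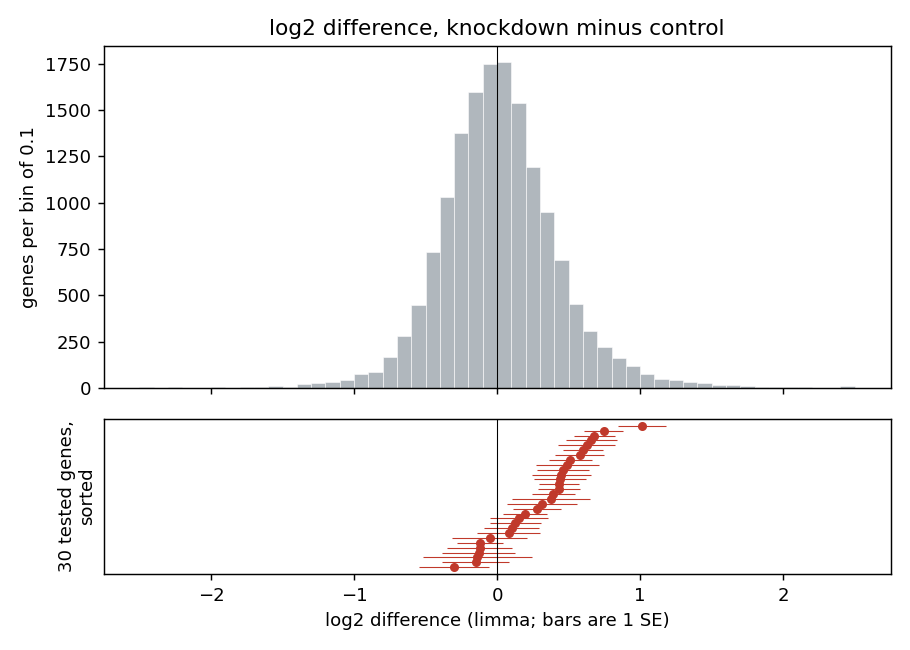
Upper panel, number of genes per bin of 0.1 in log2 difference over the 15408 genes tested, with values beyond 2.5 drawn in the end bins; lower panel, the log2 difference of the 30 tested genes sorted by size, with bars of 1 SE. The 30 run from -0.30 (SLC16A1) to 1.01 (ENO2), and 23 lie above 0.

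Genes of the same step or branch were compared within each library by the ratio of their RPKM, for 13 pairs. This ratio does not depend on the scaling of the library. In 6 of the 13 pairs the groups did not overlap. The share over other pairs of genes was not computed and some of the 13 share a gene, so this count is a description only. PFKFB3 over PFKFB2 was 25.4 to 32.0 in knockdown and 14.6 to 17.3 in control, a log2 difference of the ratio of 0.82. SLC16A3 over SLC16A1 was 3.14 to 4.17 in knockdown and 1.64 to 2.36 in control, and ENO3 over ENO1 was 0.0303 to 0.0316 in knockdown and 0.0406 to 0.0479 in control. For these 3 pairs the two-sided exact permutation p was 0.1 (adjusted p = 0.35 over 13 ratios), the smallest that 10 splits of 3 and 2 libraries allow, so no ratio could pass 0.05. SLC2A3 over SLC2A1, PFKM over PFKL and ALDOC over ALDOA also had no overlap, at an exact permutation p of 0.2. For ALDOC over ALDOA the control ratio ran from 3.17 to 8.09, and the value of ALDOA is uncertain, as said above. ENO2 over ENO1 was 0.0408 to 0.0482 in knockdown and 0.0297 to 0.0412 in control, which overlapped through control replicate 2. HK2 over HK1, PFKP over PFKL, PFKFB4 over PFKFB3, PDK1 over PDK2, PDK1 over PDK3 and GYS1 over GBE1 overlapped as well. The count of 6 was 10 without control replicate 2. Groups of fewer libraries overlap less easily, so the 2 counts cannot be compared. LDHA over LDHB has no value, since LDHB was at 0 in 4 libraries.

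**Figure D4:**
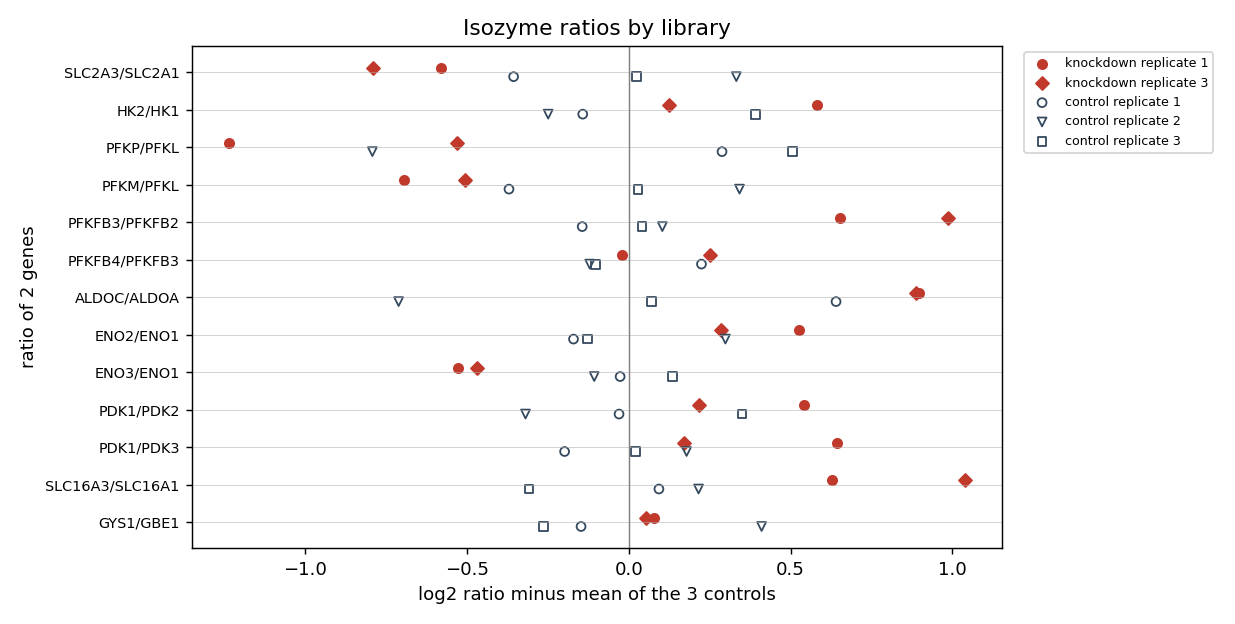
log2 of the ratio of 2 genes in each library minus the mean of the 3 controls, for 13 pairs, with knockdown libraries as filled red symbols and controls as open symbols. PFKFB3/PFKFB2 and SLC16A3/SLC16A1 lie to the right in both knockdown libraries and ENO3/ENO1 to the left.

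The start regions of the 4 genes of smallest unadjusted p are shown as examples, picked from these same data. They were searched on both strands for ACGTG, or with a G in first place GCGTG, the letters HIF-1 is known to bind. Each line gives 300 bases across the annotated start in the gene's orientation, from RefSeq on GRCh38.p14. Capitals mark both motifs and their reverse complements. They are chr12:6914330-6914629 on the plus strand for ENO2, chr17:28576846-28577145 on the minus strand for ALDOC, chr3:48556754-48557053 on the minus strand for PFKFB4 and chr1:42958819-42959118 on the minus strand for SLC2A1.
ENO2: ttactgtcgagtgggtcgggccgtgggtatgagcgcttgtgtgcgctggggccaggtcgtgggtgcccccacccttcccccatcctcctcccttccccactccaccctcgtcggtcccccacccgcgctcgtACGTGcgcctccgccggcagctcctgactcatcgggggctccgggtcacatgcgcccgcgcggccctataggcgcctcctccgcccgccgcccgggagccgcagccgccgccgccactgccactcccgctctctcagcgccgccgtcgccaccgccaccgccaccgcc
ALDOC: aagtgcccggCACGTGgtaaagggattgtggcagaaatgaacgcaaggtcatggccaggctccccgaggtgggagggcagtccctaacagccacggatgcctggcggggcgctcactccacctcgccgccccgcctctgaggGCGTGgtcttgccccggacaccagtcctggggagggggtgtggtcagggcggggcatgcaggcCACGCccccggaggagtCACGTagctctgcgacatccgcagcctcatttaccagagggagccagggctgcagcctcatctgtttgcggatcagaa
PFKFB4: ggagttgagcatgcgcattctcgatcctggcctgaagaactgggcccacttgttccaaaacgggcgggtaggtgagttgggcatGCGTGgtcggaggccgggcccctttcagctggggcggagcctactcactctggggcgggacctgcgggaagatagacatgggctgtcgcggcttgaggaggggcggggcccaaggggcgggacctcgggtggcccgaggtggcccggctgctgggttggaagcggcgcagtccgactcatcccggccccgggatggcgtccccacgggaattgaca
SLC2A1: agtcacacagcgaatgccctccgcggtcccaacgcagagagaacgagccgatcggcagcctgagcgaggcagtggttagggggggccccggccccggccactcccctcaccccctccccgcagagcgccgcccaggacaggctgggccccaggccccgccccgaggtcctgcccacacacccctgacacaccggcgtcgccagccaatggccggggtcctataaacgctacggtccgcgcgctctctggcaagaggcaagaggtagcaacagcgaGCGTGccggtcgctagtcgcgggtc
ENO2 held 1 match, ALDOC 5, PFKFB4 1 and SLC2A1 1, where CACGTG, present once in ALDOC, counts as a match on each strand. Of the 33 genes, 30 had a start region in the table, and 21 of these 30 (70%) held at least 1 match, beside 48.4% of 35116 start regions of the same length. Unlike the genes set beside the seed match, these 35116 were not limited to tested coding genes, so the shares come from unlike sets. LDHA held 6 matches, but these include CACGTG at 2 places, each counted on both strands. PGK1 and PDHA1, without CACGTG, held 4 each, and 9 genes held 0, among them PDK1, TPI1, PGAM1 and SLC16A3. The start regions of the 30 had a median GC content of 69.5%, against 58.7% over all, and how far that sets the share was not tested. A match describes the letters and is not evidence of binding, and a part of HIF-1 in the differences was not tested. SLC2A3, PFKFB2 and SLC16A1 are named only.

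Other genes of sugar metabolism, 95 in 8 lists, were set beside the 33. Of 75 tested, 35 had a positive log2 difference and 40 a negative one, their median was -0.05, and 0 passed at an adjusted p under 0.05 in limma. At an unadjusted p under 0.05, 5 were higher and 3 lower. Over all genes tested, 3.8% were higher and 2.54% lower. The controls all lay under both knockdown libraries for 13 genes (17.3%) and over both for 16. Over all genes tested, these shares were 14.3% and 13.6%. The difference between these lists and the 33 was not tested.

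Accessory and related genes of the same steps included some that lay higher. BSG, the chaperone that brings SLC16A3 to the membrane, was at 176 and 211 RPKM in knockdown and 149.8, 109.9 and 155 RPKM in control. SLC2A6, a further glucose carrier, was at 17.3 and 21.6 RPKM in knockdown and 15.9, 11.5 and 15.6 RPKM in control. HKDC1, a hexokinase-like enzyme, was at 2.55 and 2.16 RPKM in knockdown and 1.15, 1.33 and 1.09 RPKM in control. None of the 3 overlapped, at log2 differences of 0.49 (SE 0.22), 0.44 (SE 0.21) and 0.76 (SE 0.20).

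Of 10 genes of the pyruvate dehydrogenase complex and the mitochondrial pyruvate carrier, 3 had a positive log2 difference and 7 a negative one (median -0.24). MPC1, a subunit of the carrier that takes pyruvate into mitochondria, was at 13.9 and 16.5 RPKM in knockdown and 23.4, 23.2 and 21.6 RPKM in control, a log2 difference of -0.57 (SE 0.15). DLAT, the acetyltransferase of the complex, was at 12.6 and 9.10 RPKM in knockdown and 12.9, 13.8 and 17.5 RPKM in control, a log2 difference of -0.43 (SE 0.22). Both lay below all controls in both knockdown libraries. MPC2, the partner of MPC1, was at 22.4 and 32.4 RPKM in knockdown and 24.2, 16.3 and 34.5 RPKM in control, where the groups overlapped. MPC2 is named to complete the carrier and was chosen after its values were seen. Of 16 citric acid cycle genes, 4 had a positive log2 difference and 12 a negative one (median -0.14). IDH3A and OGDH, parts of dehydrogenases of the cycle, lay below all controls at log2 differences of -0.65 (SE 0.29) and -0.32 (SE 0.17), and IDH3G, the regulatory partner of IDH3A, lay above them at 0.34 (SE 0.20).

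Glycogen and pentose phosphate genes went both ways. PPP1R3C, which brings a phosphatase to glycogen and favours its synthesis, was at 9.21 and 8.94 RPKM in knockdown and 4.10, 5.49 and 5.23 RPKM in control, a log2 difference of 0.82 (SE 0.18). PPP1R3E, of the same family, differed by 0.70 (SE 0.19). GYG2, the liver primer of glycogen, was at 21.0 and 21.4 RPKM in knockdown and 27.9, 33.3 and 30.8 RPKM in control, a log2 difference of -0.52 (SE 0.15). In the pentose phosphate pathway, PGLS, a lactonase, was at 18.5 and 24.96 RPKM in knockdown and 14.9, 9.91 and 15.5 RPKM in control, a log2 difference of 0.68 (SE 0.26). H6PD, an enzyme of the endoplasmic reticulum, differed by 0.49 (SE 0.16), and RPE, an epimerase, by -0.36 (SE 0.20), both with no overlap.

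Among gluconeogenesis genes, PC, which makes oxaloacetate from pyruvate, was at 33.6 and 27.4 RPKM in knockdown and 37.2, 35.9 and 38.0 RPKM in control, and G6PC3, the widely expressed glucose 6-phosphatase, differed by 0.26 (SE 0.16). Among 8 regulators, MLXIPL, the sugar-sensing factor ChREBP, lay above all controls at a log2 difference of 0.41 (SE 0.19), and so did TXNIP, a sugar-induced brake on glucose uptake, at 0.30 (SE 0.18). EPAS1, the HIF-2 alpha subunit, lay below them at -0.44 (SE 0.18), with 36.9 and 27.9 RPKM in knockdown and 40.5, 45.6 and 45.5 RPKM in control. HIF1A messenger RNA was at 71.2 and 54.5 RPKM in knockdown and 74.8, 64.3 and 111 RPKM in control, and the groups overlapped. HIF1A is named here because it encodes the alpha subunit of HIF-1, and was chosen after its values were seen. The limma adjusted p of each gene named from these lists was 0.71 or higher.

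**Figure D5:**
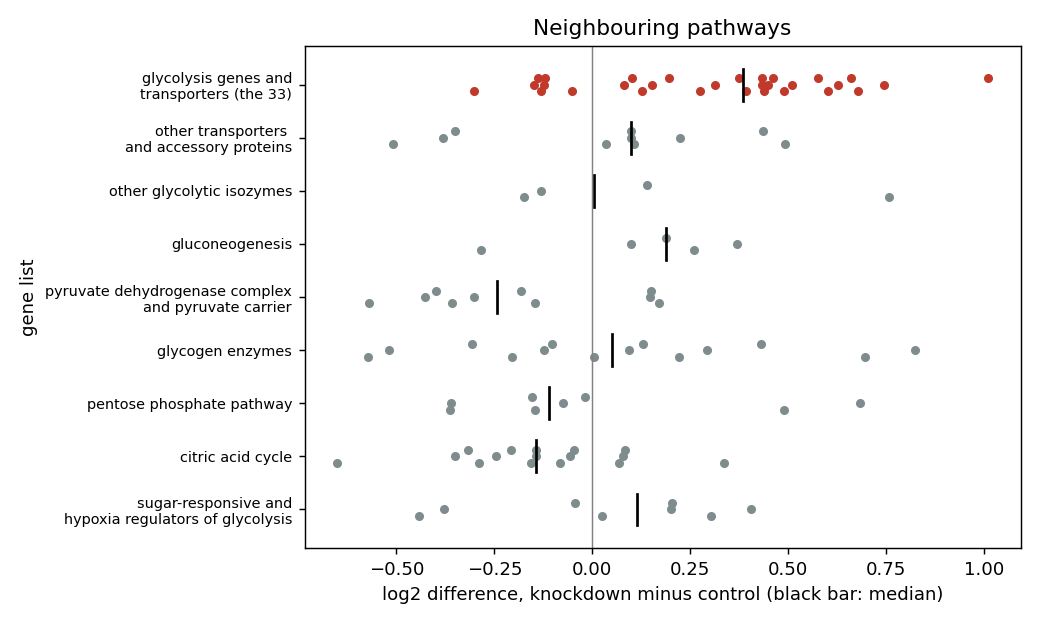
log2 difference of each tested gene, knockdown minus control, for the glycolysis genes and transporters (red, 30 tested) and 8 lists of neighbouring pathways (grey), with a black bar at each median. The median is 0.38 for the red genes and lies between -0.24 and 0.19 for the other lists.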

How the data were processed

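RNA of 6 libraries was measured by sequencing. The authors deposited 1 table of RPKM values per gene and library, as the labels' description field names it. HISAT2 and GRCh38 were used, per the submitters' processing notes; for the read counter, its annotation and its use of strand, nothing was given. All 58676 gene IDs were found in GENCODE release 29. Multiplied by exon length and divided by the library's smallest step, refined over low values, 100% of RPKM values above 0 came out whole in 5 libraries (tolerance 0.002 of a read) and were taken as assigned reads; in knockdown replicate 2, 0.42% did. No pair of the 5 libraries shared a value above 0.

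The 33 genes and the other lists were chosen with earlier results of these data known. The test was limma 3.58.1 in R 4.3.3 (lmFit, eBayes with a mean-variance trend), two-sided, on log2(RPKM + 0.5), restricted to genes that reached 0.5 RPKM in 3 or more of the 5 libraries, with Benjamini-Hochberg adjustment over all of them. Fold changes on this scale understate those of low genes. Of the other lists, the text names up to 2 genes in each direction of largest difference without overlap. Some genes of these lists are counted but not reported here by name. The code was checked on simulated reads. The replicate numbers do not pair the samples by any label.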

Additional observations from a re-analysis of the deposited data

How the results depend on the processing

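For the 18 genes without overlap, most of the 18 other settings on the 5 libraries could not change the sign. Across all 18 settings, 22 of the 30 tested genes kept the sign of their log2 difference and 8 did not. In these settings 0 of the 30 passed at an adjusted p under 0.05; the lowest was 0.0911, for ENO2 with the replicate block in limma. The median of 0.38 was 0.35 after quantile normalization, 0.32 with length and GC trends removed within libraries, and 0.32 to 0.40 when 1 library was left out. The count of 12 genes at an unadjusted p under 0.05 was 3 to 11 when 1 library was left out. With the replicate number as a block, which leaves pairs 1 and 3, it was 5. With that block 33 of all genes were called higher and 7 lower, against 0 without it. The correlation of same-numbered deviations was -0.17 for replicate 1 and 0.018 for replicate 3. With so few knockdown libraries, their deviations mirror each other, so these values cannot decide whether the numbers pair the samples. With all 6 columns as deposited, 0 of 30 genes were higher at an unadjusted p under 0.05 and 0 lay above all controls, where the values of 1 column do not follow the gene IDs. The count of 6 ratios without overlap was higher when any 1 library was left out, where groups overlap less easily, so these counts cannot be compared. Voom on recovered reads, chosen after seeing the data, gave 15 genes and, with sample weights, 14.

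The log2 differences that changed sign lay between -0.15 and 0.15 in the main comparison. Some moved much further when 1 library was left out. SLC2A3 was 0.072 with length and GC trends removed, 0.090 with the block, 0.089 with voom, 0.15 with sample weights and -0.18 to 0.090 when 1 library was left out. PFKM was 0.00044 with the block, 0.0069 with voom, 0.027 with sample weights and -0.22 to 0.00044 when 1 library was left out. ALDOA was 0.21 with the block, 0.072 with voom, 0.18 with sample weights and -0.42 to 0.21 when 1 library was left out. HK1 was 0.0035 with the block, 0.079 with voom and -0.25 to 0.0035 when 1 library was left out. PFKFB2 was 0.083 with length and GC trends removed and -0.36 to 0.060 when 1 library was left out. PDK3 was -0.052 with the block and -0.052 to 0.18 when 1 library was left out. Leaving out 1 library also gave -0.081 to 0.39 for HK2, -0.023 to 0.28 for ENO3, -0.067 to 0.27 for the log2 ratio difference of GYS1/GBE1 and -0.021 to 0.25 for that of PFKFB4/PFKFB3. The cause was not tested. PFKP, PKLR and LDHB had too few reads to be tested.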
